A study of Mus musculus with 6 samples.

Results

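The epidermal growth factor (EGF) family comprises the secreted or membrane-anchored ligands of the ErbB receptors and the receptors themselves. Of 10 listed genes, 9 were represented on the arrays, out of 18193 genes named on them, by 20 of the 45037 probe sets that were not controls: the ligands Ereg, Hbegf, Epgn, Btc, Tgfa and Egf and the receptors Egfr, Erbb2 and Erbb3. A probe set was taken where the annotation gave it one of these symbols and no other. Areg, the tenth gene, is not analysed here. The family was selected on differences between the same groups of arrays described here, so the values of its genes are given as a description, counts of its probe sets past a threshold stand only beside the same count over all probe sets, and no support is drawn from either.

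ErbB ligands are made as transmembrane precursors, and metalloproteases cut most of them from the cell surface. A bound ligand makes the receptors pair and phosphorylate each other, which passes the signal to the Ras-ERK cascade and other pathways. Erbb2 has no known ligand of its own and acts as a partner, and Erbb3 has little kinase activity and signals through its partners. In skin, ligands of this family are known for keratinocyte growth and wound repair, and dermal fibroblasts are both a source and a target of them.

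The cells were primary dermal fibroblasts at passage 4 from the skin of newborn mice aged 0 to 2 days, labelled as strain B6. They carried an X-linked GFP transgene, driven by a chicken beta-actin promoter with a CMV enhancer, and all had been sorted for GFP-nonexpressing cells before the experiment, so that GFP reports the reactivation of a transgene on the inactive X chromosome. GFP-positive and GFP-negative cells received 5-aza-2′-deoxycytidine, which blocks DNA methyltransferases, at 4 µM for 48 hours with fresh drug every 24 hours, recovered for 24 hours and were then separated by a second GFP sort. Control cells had neither the drug nor the second sort, so drug and second sort cannot be told apart in either comparison with control. Each group had 2 arrays, called biological replicates in the labels. Control replicate 2 was labelled as mixed gender and the other samples as female. In such cultures, fewer cells of a type and less RNA per cell cannot be told apart.

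The arrays of replicate 1 and replicate 2 differed in their distribution of signal. With the trimmed mean of every array set to 500, the median signal lay between 122.6 and 134.8 on the 3 arrays of replicate 1 and between 79.8 and 81.1 on the 3 arrays of replicate 2. Differences are therefore given within each replicate number as well as pooled, on the scale of log2(signal + 30.64), which compresses the differences of dim probe sets. Pooled differences carry the standard error (SE) of the limma fit over all 6 arrays, and a second fit with a term for the replicate number is given beside counts of calls. A call is a Benjamini-Hochberg adjusted p under 0.05 over the 27022 probe sets bright enough to be tested. Signals of different probe sets are not comparable as levels.

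The promoters show how unlike the members are in CpG content, the sequence that the drug's target enzymes methylate. RefSeq promoters on build GRCm38.p6, taken as the 250 bases before each start, were found for 7 of the 10 listed genes. Over all 32851 such promoters the median number of CpG was 6, with quartiles of 2 and 16. Of the members, Tgfa had 19, Erbb2 16, Egfr 11, Epgn 5 and Btc 4, and 2 start sites of Egf had 15 and 0. The promoters of the ligand Epgn, near the median in CpG, the ligand Tgfa, with the most CpG among these members, and the receptor Egfr are printed 5′ to 3′, with each CpG in capitals. They lie at chr5:91027267-91027516, chr6:86194972-86195221 and chr11:16751953-16752202 in this order, all on the plus strand.
Epgn: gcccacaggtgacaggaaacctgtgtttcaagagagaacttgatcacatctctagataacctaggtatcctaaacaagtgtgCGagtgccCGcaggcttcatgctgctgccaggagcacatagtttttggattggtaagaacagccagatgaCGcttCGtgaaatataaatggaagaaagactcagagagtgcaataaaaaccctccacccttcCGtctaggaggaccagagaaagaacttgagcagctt
Tgfa: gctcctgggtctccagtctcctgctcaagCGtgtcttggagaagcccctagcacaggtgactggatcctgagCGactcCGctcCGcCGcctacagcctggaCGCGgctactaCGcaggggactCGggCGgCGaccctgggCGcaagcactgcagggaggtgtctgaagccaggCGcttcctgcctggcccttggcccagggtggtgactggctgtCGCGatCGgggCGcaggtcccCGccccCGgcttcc
Egfr: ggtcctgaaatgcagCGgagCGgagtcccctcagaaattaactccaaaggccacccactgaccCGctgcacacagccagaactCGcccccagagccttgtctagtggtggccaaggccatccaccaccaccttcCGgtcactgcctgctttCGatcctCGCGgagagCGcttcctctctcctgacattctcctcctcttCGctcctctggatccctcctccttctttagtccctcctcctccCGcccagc
Searched on both strands, the letters TATAAA occurred in the Epgn window, and in 12.4% of all promoters. The letters GGGCGG occurred in the Tgfa and Egfr windows, and in 32.7% of all promoters. The letters TGACTCA, the AP-1 motif, occurred in none of these 3 windows, and in 4.46% of all promoters.

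The ligands Ereg and Hbegf were higher in both treated groups than in control cells, in both replicate numbers. Every other tested probe set of the family had a pooled difference from control of at most 0.93 in either direction on the log2 scale. Ereg encodes epiregulin, a ligand of Egfr and Erbb4. Its probe set 1419431_at had signals of 1951 and 1530 in GFP-positive cells, 2479 and 1685 in GFP-negative cells and 448 and 462 in control cells. All 4 treated arrays lay above both control arrays, and the control arrays were close together. The means were 1740 ± 298 in GFP-positive cells, 2082 ± 561 in GFP-negative cells and 455 ± 9.83 in control cells (SD, n = 2 each). Against control, GFP-positive cells were higher by 1.86 ± 0.27 (SE) on the log2 scale, with 2.05 within replicate 1 and 1.66 within replicate 2. GFP-negative cells were higher by 2.09 ± 0.27, with 2.39 and 1.80 within the replicates. As ratios of signal, GFP-positive cells had 4.35 and 3.31 times the control of the same replicate number and GFP-negative cells 5.53 and 3.65 times. Of all probe sets tested, 0.870% had a larger absolute difference in GFP-positive cells and 0.370% in GFP-negative cells.

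Hbegf encodes heparin-binding EGF-like growth factor, a ligand of Egfr and Erbb4 whose membrane-bound precursor is the receptor for diphtheria toxin. It had a pair of probe sets. The brighter, 1418350_at, had signals of 3289 and 7174 in GFP-positive cells, 3815 and 8761 in GFP-negative cells and 1098 and 2553 in control cells. Every group was brighter in replicate 2 than in replicate 1, yet all treated arrays lay above both control arrays. The difference from control was 1.52 ± 0.55 in GFP-positive cells, with 1.56 and 1.48 within the replicates. In GFP-negative cells it was 1.77 ± 0.55, with 1.77 in each replicate. With a term for the replicate number the SE of both was 0.13. The second probe set, 1418349_at, had signals of 1247 and 1816 in GFP-positive cells, 1484 and 1913 in GFP-negative cells and 432 and 589 in control cells. Its differences were 1.52 ± 0.29 in GFP-positive cells and 1.68 ± 0.29 in GFP-negative cells, close to those of the brighter probe set. After subtracting the mean of each replicate number, the log2 values of both Hbegf probe sets had a Pearson r of 0.997 over the 6 arrays, and those of Ereg and the brighter Hbegf probe set an r of 0.992. These coefficients are descriptions over arrays that share their group means.

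**Figure D1:**
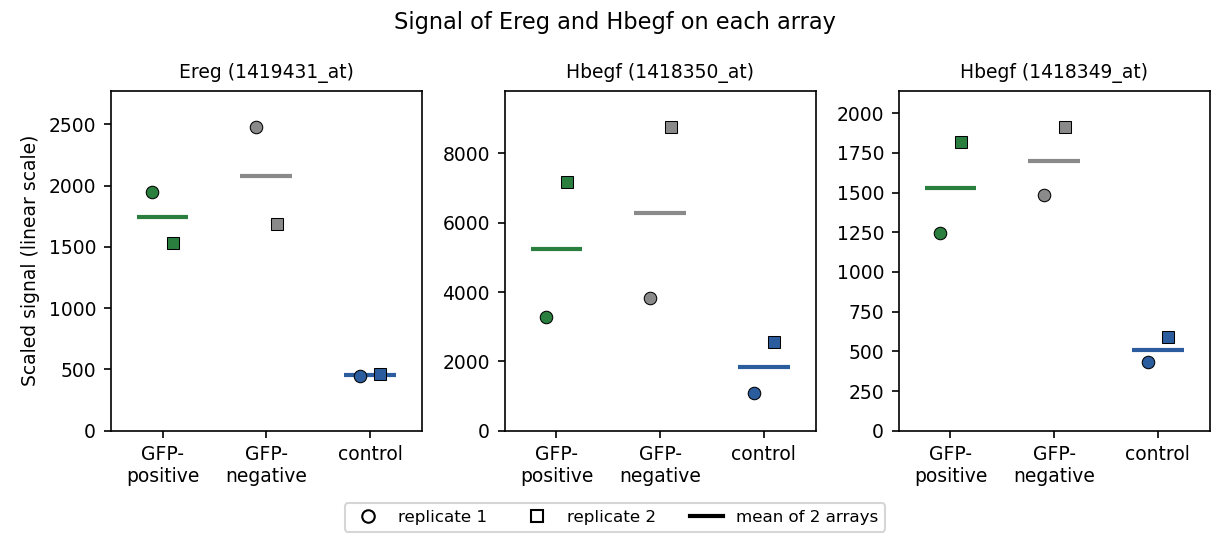
Scaled signal (linear axis from 0) of Ereg and the 2 Hbegf probe sets in GFP-positive, GFP-negative and control cells, with circles for replicate 1, squares for replicate 2 and bars for the mean of 2 arrays. Treated arrays lie above both control arrays in each panel, with Ereg at 1530 to 2479 in treated cells and 448 to 462 in control cells.

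The other ligands were dim and varied between arrays of a group. Btc encodes betacellulin, a ligand of Egfr and Erbb4. Its probe set 1435541_at had signals of 196 and 60.4 in GFP-positive cells, 145 and 103 in GFP-negative cells and 118 and 13.2 in control cells. The groups overlapped. The difference was 0.83 ± 0.76 in GFP-positive cells, with 0.61 and 1.05 within the replicates, and 0.93 ± 0.76 in GFP-negative cells, with 0.25 and 1.61. A second Btc probe set, 1421161_at, was too dim to be tested, with 127 and 71.2 in GFP-positive cells, 57.4 and 46.8 in GFP-negative cells and 55.1 and 44.7 in control cells.

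Tgfa encodes transforming growth factor alpha, a ligand of Egfr. Its brightest probe set, 1450421_at, had signals of 342 and 43.5 in GFP-positive cells, 301 and 115 in GFP-negative cells and 324 and 81.0 in control cells. All groups were brighter in replicate 1, and they overlapped. The difference was -0.26 ± 0.87 in GFP-positive cells, opposite in sign between the replicates at 0.07 and -0.59, and 0.14 ± 0.87 in GFP-negative cells. The probe set 1421943_at had signals of 143 and 120 in GFP-positive cells, 164 and 94.3 in GFP-negative cells and 113 and 94.4 in control cells. GFP-positive cells lay above control on both arrays, by 0.27 ± 0.47, while GFP-negative cells overlapped with control. The third Tgfa probe set, 1421942_s_at, was too dim to be tested, at 29.2 to 83.7 over the 6 arrays.

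Egf, the ligand that names the family, had signals of 116 and 59.4 in GFP-positive cells, 96.7 and 39.5 in GFP-negative cells and 136 and 63.4 in control cells at probe set 1418093_a_at. Its differences were -0.13 ± 0.64 in GFP-positive cells and -0.41 ± 0.64 in GFP-negative cells, below control within both replicate numbers. Epgn encodes epigen, and its probe set 1449994_at was too dim to be tested, with 46.4 and 43.5 in GFP-positive cells, 69.5 and 21.8 in GFP-negative cells and 27.1 and 31.6 in control cells.

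**Figure D2:**
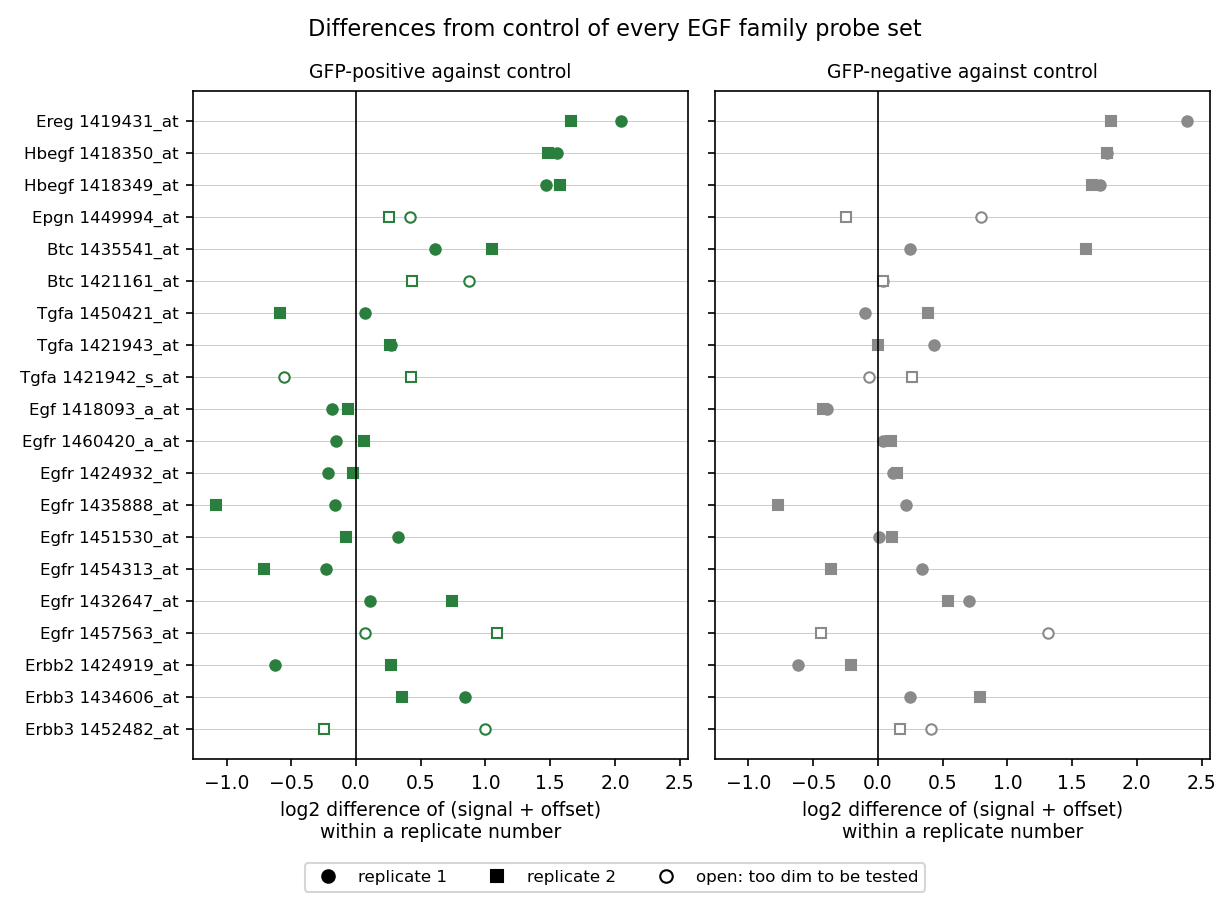
Difference from the control array of the same replicate number in log2(signal + offset) for each of the 20 probe sets, with GFP-positive cells on the left and GFP-negative cells on the right, circles for replicate 1, squares for replicate 2 and open symbols for probe sets too dim to be tested. Ereg and both Hbegf probe sets lie at 1.47 to 2.39 in both panels, and of the other tested probe sets only Btc 1435541_at reaches that range, at 1.61 on replicate 2 of GFP-negative cells.

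Among the receptors, Egfr, the receptor for EGF, TGF-alpha and the other Egfr ligands, was measured by 7 probe sets, of which 6 could be tested. The brightest, 1460420_a_at, had signals of 1087 and 722 in GFP-positive cells, 1249 and 743 in GFP-negative cells and 1215 and 691 in control cells. The groups overlapped, with differences of -0.048 ± 0.38 in GFP-positive cells and 0.070 ± 0.38 in GFP-negative cells. The probe set 1424932_at had 668 and 980 in GFP-positive cells, 850 and 1107 in GFP-negative cells and 781 and 995 in control cells, with differences of -0.12 ± 0.29 and 0.13 ± 0.29.

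The probe set 1435888_at differed in pattern from these, with 607 and 421 in GFP-positive cells, 798 and 530 in GFP-negative cells and 682 and 924 in control cells. Both GFP-positive arrays lay below both control arrays. The difference was -0.62 ± 0.32 in GFP-positive cells, with -0.16 within replicate 1 and -1.08 within replicate 2, and -0.28 ± 0.32 in GFP-negative cells, with 0.22 and -0.77. In both treated groups it came mostly from replicate 2, whose control array was the brightest of the 6. The other 3 tested Egfr probe sets, 1451530_at, 1454313_at and 1432647_at, had differences of 0.12 ± 0.28, -0.47 ± 0.51 and 0.42 ± 0.59 in GFP-positive cells. In GFP-negative cells they were 0.06 ± 0.28, -0.01 ± 0.51 and 0.62 ± 0.59. The 6 probe sets thus disagreed in sign, and the brightest of them differed from control by less than its SE in both treated groups.

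**Figure D3:**
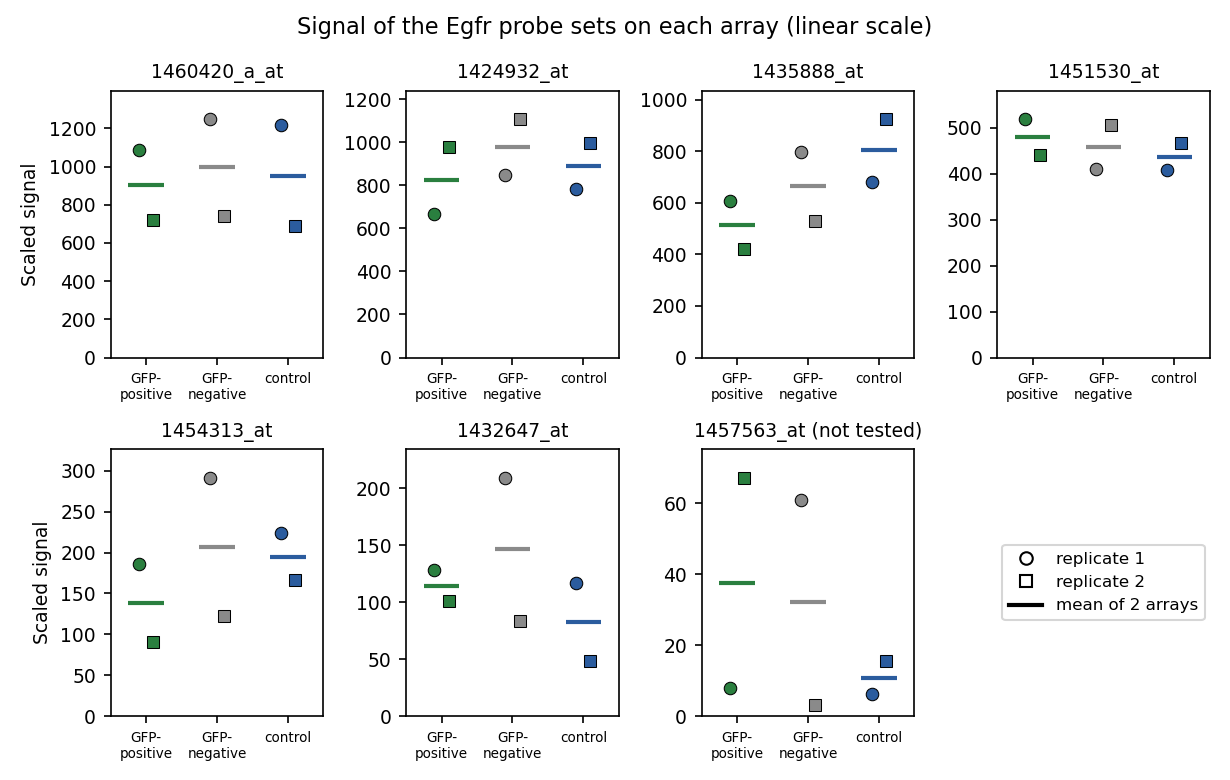
Scaled signal (linear axes from 0) of the 7 Egfr probe sets in GFP-positive, GFP-negative and control cells, with circles for replicate 1, squares for replicate 2 and bars for the mean of 2 arrays. The groups overlap in every tested panel except GFP-positive against control cells at 1435888_at.

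Erbb2 had signals of 345 and 406 in GFP-positive cells, 347 and 283 in GFP-negative cells and 550 and 331 in control cells at probe set 1424919_at. Its difference was -0.18 ± 0.33 in GFP-positive cells, with opposite signs within the replicates, and -0.41 ± 0.33 in GFP-negative cells, with -0.62 and -0.21. Erbb3 had signals of 162 and 77.2 in GFP-positive cells, 97.1 and 114 in GFP-negative cells and 76.7 and 53.6 in control cells at probe set 1434606_at. All treated arrays lay above both control arrays, by as little as 77.2 against 76.7, and all were dim. The difference was 0.60 ± 0.55 in GFP-positive cells and 0.52 ± 0.55 in GFP-negative cells. A second Erbb3 probe set, 1452482_at, was too dim to be tested.

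Of the 20 probe sets, 15 passed the filter on low signal, which cover 8 genes and leave out Epgn. In the fit without the replicate number, 0 of these 15 were called in GFP-positive against control cells, against 0.122% of all tested probe sets. An unadjusted p under 0.05 was reached by 3 of the 15, and by 1902 of all 27022. In GFP-negative against control cells 0 of 15 were called, against 0.0296% of all. There 3 had an unadjusted p under 0.05, as had 1370 of all 27022. With a term for the replicate number, 3 of 15 were called in GFP-positive cells, against 6.21% of all, and 3 of 15 in GFP-negative cells, against 3.57% of all. These 3 were Ereg and both Hbegf probe sets in each comparison, and since both comparisons share the control arrays and had a part in the choice of genes, nothing is read from the counts. In that fit without the variance trend 0 of the 15 were called in GFP-positive cells, against 0.0296% of all, and 0 in GFP-negative cells, against 0% of all. Both GFP-positive arrays lay above both control arrays for 5 of 15 probe sets, against 17.3% of all, and below for 1, against 14.9%. Both GFP-negative arrays lay above both control arrays for 4 of 15, against 15.1% of all, and below for 0, against 13.5%. The median difference over the brightest probe sets of the 8 genes was 0.28 in GFP-positive cells and 0.33 in GFP-negative cells, beside 0.039 and 0.040 over all tested probe sets. This median turned to -0.24 and -0.14 without control replicate 2, was 0.93 in GFP-positive cells without GFP-positive replicate 2, and was -0.048 there with a stricter filter on low signal. For the ligands alone the median was 0.83 and 0.93, and for the receptors -0.048 and 0.070. Each is the value of a single probe set, Btc 1435541_at for the ligands and Egfr 1460420_a_at for the receptors. Btc was dim, with an SE of 0.76 and overlapping groups, and its differences were -0.047 and 0.050 without control replicate 2. Nothing is read from ligands against receptors.

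GFP-positive and GFP-negative cells had the same treatment and both sorts, and differed in the GFP signal by which they were separated. Ereg differed by -0.24 ± 0.27 between GFP-positive and GFP-negative cells, with -0.34 and -0.14 within the replicates. The Hbegf probe sets differed by -0.25 ± 0.55 and -0.16 ± 0.29, each lower in GFP-positive cells within both replicates. With the replicate number in the fit the SE were 0.18 for Ereg and 0.13 and 0.16 for Hbegf. Of the 15 tested probe sets, 0 were called in this comparison, with or without the replicate number, against 0% of all in either fit. An unadjusted p under 0.05 was reached by 0 of the 15 in either fit, and by 169 of all tested probe sets without and 1553 with the replicate number. Within both replicate numbers, 1 of the 15 was higher and 7 were lower in GFP-positive cells, beside 26.6% and 27.4% of all. The higher was Egf. The lower ones came from Ereg, Hbegf and Egfr only, with both Hbegf probe sets and Egfr 1460420_a_at, 1424932_at, 1435888_at and 1454313_at. Repeated probe sets of a gene are not separate genes, so nothing is read from this count.

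The further genes of the pathway were taken from lists by their known role, each at its brightest probe set. Their calls with the replicate number stand against 6.21% of all tested probe sets in GFP-positive cells and 3.57% in GFP-negative cells. In that fit without the variance trend 0 of the list genes were called. Without the replicate number 0.122% and 0.0296% of all were called. Counts at an unadjusted p under 0.05 stand there beside 1902 and 1370 of all 27022. The receptor Erbb4 and its ligands, the neuregulins Nrg1 to Nrg4, were mostly dim. Erbb4 and Nrg3 could not be tested, and 0 of the other 3 were called against control in either treated group or either fit, with 0 at an unadjusted p under 0.05 in the fit without the replicate number. Nrg1 had 157 and 133 in GFP-positive cells, 199 and 111 in GFP-negative cells and 245 and 231 in control cells, a difference of -0.62 ± 0.40 in GFP-positive cells (limma adjusted p = 0.925, and 0.307 with the replicate number). Nrg2 and Nrg4 differed by 0.23 ± 0.75 and -0.52 ± 0.68 in GFP-positive cells.

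Of 10 tested genes for the release of ligands, 0 were called without the replicate number in either comparison with control, and 2 had an unadjusted p under 0.05 in each. With the replicate number, 1 rose and 1 fell in each comparison. Timp3, an inhibitor of the metalloproteases that cut ErbB ligands, fell in both treated groups in that fit. It had signals of 9699 and 7589 in GFP-positive cells, 12173 and 9620 in GFP-negative cells and 20487 and 15574 in control cells, a separation on all arrays. Its difference was -1.06 ± 0.25 in GFP-positive cells (limma adjusted p = 0.281, and 0.000331 with the replicate number) and -0.72 ± 0.25 in GFP-negative cells (0.759, and 0.00567 with the replicate number). Rhbdf2 encodes iRhom2, which carries the protease Adam17 to the cell surface. It had 239 and 175 in GFP-positive cells, 68.6 and 154 in GFP-negative cells and 42.2 and 11.7 in control cells. Both control signals lay below 67.7, the mean signal needed for testing. Rhbdf2 thus passed the filter through the treated arrays, and nothing is read from its call. The difference was 2.09 ± 0.60 in GFP-positive cells (limma adjusted p = 0.397, and 0.031 with the replicate number) and 1.29 ± 0.60 in GFP-negative cells (0.22 with the replicate number). In GFP-negative cells the gene that rose with the replicate number was the protease Adam19, by 0.76 ± 0.22 (limma adjusted p = 0.604, and 0.0109 with the replicate number), while in GFP-positive cells it differed by 0.30 ± 0.22. Whether Rhbdf2 and Adam19 differed between the treated groups was tested in the contrast between them, where neither was called (limma adjusted p = 0.877 and 0.771 with the replicate number). Rhbdf1, the paralog of Rhbdf2, differed by -0.35 ± 0.26 in GFP-positive cells. Of the other protease genes, Adam17 differed by 0.10 ± 0.29, Adam10 by 0.0020 ± 0.21 and Adam12 by -0.60 ± 0.47 in GFP-positive cells, all named outside the rule for this list.

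Of 16 tested genes of the adaptors and the ERK cascade, 0 were called without the replicate number in either comparison with control, with 1 at an unadjusted p under 0.05 in each, and 1 fell in GFP-positive cells with the replicate number. That gene was Stat3, a transcription factor that ErbB receptors and cytokine receptors activate. It had signals of 2816 and 2392 in GFP-positive cells, 3568 and 3782 in GFP-negative cells and 5045 and 5016 in control cells. The difference was -0.95 ± 0.20 in GFP-positive cells (limma adjusted p = 0.217, and 0.00217 with the replicate number) and -0.45 ± 0.20 in GFP-negative cells (0.114 with the replicate number). The adaptor Grb2 differed by 0.37 ± 0.21 and the exchange factors Sos1 and Sos2 by -0.47 ± 0.23 and 0.68 ± 0.37 in GFP-positive cells. The list's median difference was -0.06 in GFP-positive cells and -0.02 in GFP-negative cells.

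Of 22 tested genes for inhibition and endocytosis of the receptors, 0 were called without the replicate number in either comparison with control, and 3 had an unadjusted p under 0.05 in each. With it, 2 rose and 1 fell in GFP-positive cells and 2 rose in GFP-negative cells. Errfi1 encodes Mig6, an inhibitor that binds the Egfr kinase domain and is itself induced by receptor signalling. It had signals of 2892 and 4403 in GFP-positive cells, 2758 and 2641 in GFP-negative cells and 1030 and 1535 in control cells, with all treated arrays above both control arrays. The difference was 1.48 ± 0.29 in GFP-positive cells (limma adjusted p = 0.165, and 0.0006 with the replicate number) and 1.08 ± 0.29 in GFP-negative cells (0.534, and 0.00648 with the replicate number). Ptprk, a receptor phosphatase that acts on Egfr, differed by 1.06 ± 0.26 in GFP-positive cells (limma adjusted p = 0.312, and 0.00963 with the replicate number) and by 0.74 ± 0.26 in GFP-negative cells (0.0694 with the replicate number). The second gene to rise in GFP-negative cells in that fit was Sh3kbp1, which encodes the endocytic adaptor CIN85, by 0.69 ± 0.41 (0.0211 with the replicate number), and it is named outside the rule. Lrig3, of a family of membrane proteins that regulate receptors, fell in GFP-positive cells by 0.95 on the log2 scale, with an SE of 0.31 (limma adjusted p = 0.505, and 0.047 with the replicate number). Eps8, a substrate of Egfr, differed by -0.61 ± 0.29 in GFP-positive cells.

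ERK output genes are transcribed when the ERK cascade is active in many cell types, and other pathways can also induce most of them. Of 22 tested, 2 rose and 0 fell in GFP-positive against control cells, where 0.122% of all tested probe sets were called. In GFP-negative against control cells 1 rose and 0 fell, against 0.0296% of all. An unadjusted p under 0.05 was reached by 13 and 12 of the 22, and by 1902 and 1370 of all 27022. With the replicate number, 14 rose and 2 fell in GFP-positive cells and 10 rose and 1 fell in GFP-negative cells, against 6.21% and 3.57% of all tested probe sets. In that fit without the variance trend 0 of the 22 were called in either comparison. An unadjusted p under 0.05 was reached there by 16 and 15 of them, and by 4350 and 3489 of all 27022. The list was drawn up with earlier results of these arrays known. Its median difference was 0.99 in GFP-positive cells and 1.06 in GFP-negative cells, beside medians of 0.039 and 0.040 over all tested probe sets.

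Phlda1, a pleckstrin homology-like protein, rose in both treated groups. It had signals of 5042 and 4097 in GFP-positive cells, 4757 and 4386 in GFP-negative cells and 850 and 982 in control cells, a wide gap between treated and control arrays. The difference was 2.28 ± 0.22 in GFP-positive cells (limma adjusted p = 0.0219) and 2.28 ± 0.22 in GFP-negative cells (limma adjusted p = 0.0386). Neither the calls of Phlda1 nor that of Fosl1 held without the variance trend, with median centring or with any 1 array of the compared groups left out. In GFP-negative cells Phlda1 was also not called with quantile normalization, a smaller offset, a stricter filter or only the groups compared. Fosl1 was also not called in GFP-positive cells with quantile normalization, a stricter filter or only the groups compared. Fosl1, a subunit of the transcription factor AP-1, had 1532 and 1952 in GFP-positive cells, 1491 and 1565 in GFP-negative cells and 304 and 444 in control cells. It rose by 2.14 ± 0.27 in GFP-positive cells (limma adjusted p = 0.0456), and in GFP-negative cells differed by 1.97 ± 0.27 (limma adjusted p = 0.0993, and 0.000144 with the replicate number). Between GFP-positive and GFP-negative cells Fosl1 differed by 0.18 ± 0.27 (limma adjusted p = 1). The cytokine gene Il11 had 508 and 844 in GFP-positive cells, 508 and 875 in GFP-negative cells and 112 and 153 in control cells, with a difference of 2.09 ± 0.38 in GFP-positive cells (limma adjusted p = 0.147, and 0.000296 with the replicate number). Plaur, the urokinase receptor, differed by 1.51 ± 0.27 in GFP-positive cells (limma adjusted p = 0.132, and 0.000177 with the replicate number). The genes that fell with the replicate number in GFP-positive cells were Spry1 and Spry2. Spry1 differed by -1.43 ± 0.41 (limma adjusted p = 0.395, and 0.00218 with the replicate number). Spry2 differed by -0.79 ± 0.40 (limma adjusted p = 0.801, and 0.0282 with the replicate number). Both encode Sprouty proteins, which restrain the Ras-ERK cascade and are commonly induced by it, and both are named outside the rule. Spry1 was also the gene that fell in GFP-negative cells with the replicate number, at -0.89 ± 0.41 (limma adjusted p = 0.039 with the replicate number, and not called without it). The family member Spry4 went the other way, at 1.17 ± 0.38 in GFP-positive cells (limma adjusted p = 0.498, and 0.02 with the replicate number).

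**Figure D4:**
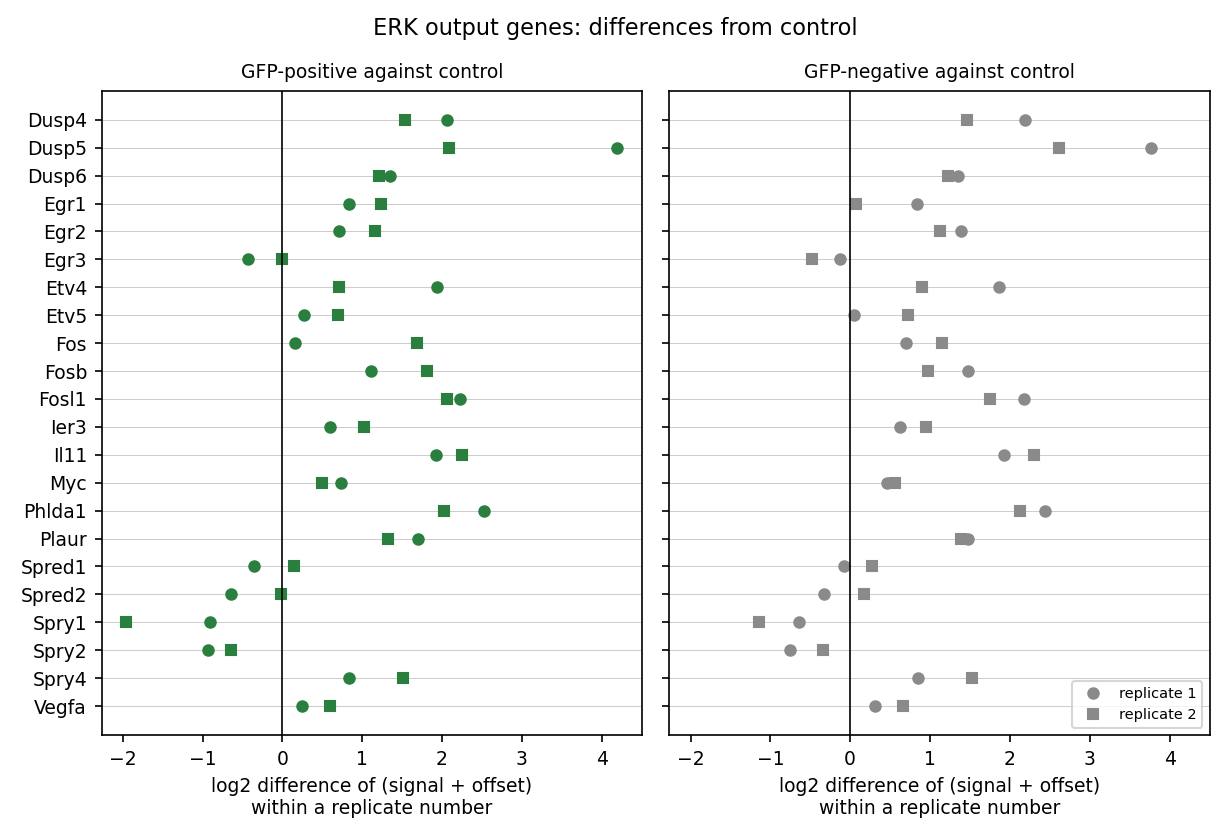
Difference from the control array of the same replicate number in log2(signal + offset) for the 22 ERK output genes, with GFP-positive cells on the left, GFP-negative cells on the right, circles for replicate 1 and squares for replicate 2. Of the 22 genes, 17 in GFP-positive cells and 18 in GFP-negative cells had a pooled difference above 0. Spry1, Spry2 and Egr3 lay below 0 on both replicates in both panels.

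Markers of other skin cells were set beside these values. All 12 fibroblast markers could be tested, with a summed signal of 180188 and 173620 in GFP-positive cells, 193151 and 179395 in GFP-negative cells and 232801 and 233799 in control cells. Without the replicate number 0 of the 12 were called in either comparison with control. An unadjusted p under 0.05 was reached by 5 and 3 of them, and by 1902 and 1370 of all 27022. With the replicate number 7 fell in GFP-positive cells and 5 in GFP-negative cells, against calls of 6.21% and 3.57% of all in either direction. The largest falls were those of the matrix proteoglycans Dcn, at -3.36 ± 1.15 in GFP-positive cells and -2.61 ± 1.15 in GFP-negative cells, and Lum, at -2.92 ± 0.73 and -3.25 ± 0.73, while Vim and Col1a2, the brightest of the list, did not pass in either fit. Lum had signals of 291 and 93.0 in GFP-positive cells, 274 and 51.6 in GFP-negative cells and 2320 and 934 in control cells. Of 15 keratinocyte markers 9 could be tested, and the defining keratins Krt14, Krt15, Krt1, Krt16 and Krt17 and the cadherin Cdh1 were too dim. The summed signal of keratinocyte markers was 2805 and 1775 in GFP-positive cells, 2336 and 2067 in GFP-negative cells and 1910 and 1194 in control cells, so it was higher in treated cells within both replicate numbers. With the replicate number, 3 of the 9 rose in GFP-positive cells (Lor, Sfn and Perp) and 2 in GFP-negative cells (Lor and Sfn). These calls stand against 6.21% and 3.57% of all. Without it 0 were called, with 2 and 1 at an unadjusted p under 0.05. Control signals were 46.9 and 36.5 for Perp, which passed the filter at 67.7 through the treated arrays. For Sfn they were 161 and 5.90, so the size of its difference rests on a dim control array. Of the 9, 5 had a pooled difference above 0 in each comparison. Their median was 0.076 in GFP-positive and 0.10 in GFP-negative cells, beside 0.039 and 0.040 over all. Among those below 0 in both were Dsc3, at -1.05 ± 0.71 and -0.04 ± 0.71, and Krt6a, at -0.51 ± 0.73 and -0.88 ± 0.73. Leukocyte markers, 6 of 10 tested and Ptprc too dim, summed to 1834 and 1626 in GFP-positive cells, 1853 and 1539 in GFP-negative cells and 1494 and 925 in control cells. This sum was also higher in treated cells within both replicate numbers. Of the 6, 0 were called against control in either fit. Only 1, Cd68, had an unadjusted p under 0.05 without the replicate number in each comparison. A pooled difference above 0 was found for 4 of the 6 in each, with medians of 0.21 and 0.31. Endothelial markers, 4 of 6 tested and Pecam1 too dim, summed to 490 and 281 in GFP-positive cells, 526 and 335 in GFP-negative cells and 540 and 615 in control cells. The part of these markers in the differences of Ereg and Hbegf was not tested.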

How the data were processed

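Total RNA of 6 samples was measured on Affymetrix mouse 430 2.0 arrays, 2 for each of the 3 groups given in the labels. The deposited values are 1 linear signal intensity per probe set and array, made with MAS5 per the submitters' processing notes. The MAS5 version is not given in the sources used here. With 2% trimmed off each side, the mean deposited intensity was 500.003 to 500.004 on 4 arrays. It was 50.5 for replicate 2 of GFP-positive cells and 62.0 for replicate 2 of GFP-negative cells, so each array's trimmed mean was scaled to 500. After 64 control probe sets were left out, 34945 of 45037 had 1 gene symbol, 932 several and 9160 none in the platform annotation used here. Probe sets were tested if their mean signal reached the 40th percentile (67.7), which left 27022. Before taking log2, 30.64 was added, the median of the 6 lower quartiles.

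Differences came from limma 3.58.1 in R 4.3.3: group means were fitted to all 6 arrays together, the variance was moderated with a trend on signal, and two-sided tests used 3 residual degrees of freedom (2 with a term for the replicate number) with Benjamini-Hochberg adjustment. The code was tested on simulated data with known changes. With 2 arrays a group the number of arrays limits the precision. The labels do not say whether replicates came from separate cultures or animals, and the p-values reflect only the spread of these samples, which may be technical.

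The members and gene lists were chosen with earlier results of these data known. The text names every member at each probe set, up to 4 genes per pathway list with the smallest unadjusted p in GFP-positive against control cells, and the 5 genes with the pattern most like the member of largest difference. A list gene was represented by its brightest probe set. The alternatives tried changed the scaling (quantile or median), the offset, the filter, the variance trend, the threshold or the arrays in the fit, or added the replicate number to the model. Promoters came from a RefSeq table with no entry for Ereg, Hbegf or Erbb3. Areg is not analysed here.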

Additional observations from a re-analysis of the deposited data

How the results depend on the processing

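The differences of Ereg and Hbegf from control kept their sign under every alternative run, at 1.68 to 2.03 for Ereg and 0.92 to 2.11 for Hbegf in GFP-positive cells and 1.82 to 2.37 and 1.17 to 2.36 in GFP-negative cells. So did those of the dim Erbb3, at 0.18 to 1.02 in GFP-positive cells and 0.28 to 0.69 in GFP-negative cells. The differences of Btc, Tgfa, Egf, Egfr and Erbb2 changed sign under at least 1 alternative in some comparison with control. The calls did not hold in this way. For GFP-positive against control cells 33 probe sets were called, against 1679 with the replicate number as a block, 8 with that block and no trend (an alternative chosen after seeing the data), 0 without the trend and 78 at an adjusted p under 0.10. For GFP-negative against control cells 8 were called, against 966 with the block, 0 with the block and no trend, 0 without the trend and 25 at the looser threshold, 4 with median centring, 3 with a smaller offset, 3 with only the groups compared and 3 with a stricter filter. The causes were not tested.

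Same-numbered arrays deviated together from their group means, with correlations of 0.506 to 0.556 over probe sets. The labels do not say what a replicate number shares, so this is a hint from the data and not from the design. The count of the family's probe sets past the threshold is a description of genes chosen on these differences. With the replicate block it was 3 in each comparison with control, beside 1679 and 966 of all 27022. With the block and no trend it was 0 in each, beside 8 and 0 of all. Without the filter on low signal it was 1 of 20 in GFP-positive cells, beside 44 of all 45037. At the looser threshold it was 1 in each comparison with control, beside 78 and 25 of all 27022.

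Leaving out 1 array gave 0 to 35 calls in GFP-positive against control cells, lowest without GFP-positive replicate 2, with 2 and 13 without control replicate 1 and 2 and 8 without GFP-positive replicate 1. In GFP-negative against control cells it gave 0 to 6. A lone remaining array was assumed to vary like the other groups. The median difference of the members ranged from -0.24 to 0.93 in GFP-positive cells, from -0.14 to 0.84 in GFP-negative cells and from -0.37 to 0.33 between the treated groups over these fits. It was lowest against control without control replicate 2. With a stricter filter at the 60th percentile it was -0.048, 0.14 and -0.24, over fewer genes. In GFP-positive cells it was 0.25 with quantile normalization, 0.24 with median centring, 0.35 with a smaller offset and 0.15 with a larger offset.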

Other observations

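Ereg, Epgn, Areg and Btc lie next to each other on mouse chromosome 5. In the order of the gene table, Cxcl1, Cxcl2 and Mthfd2l lie on one side of the group and Parm1 and Rchy1 on the other. Cxcl1, a chemokine gene, had signals of 1418 and 612 in GFP-positive cells, 1724 and 377 in GFP-negative cells and 1091 and 166 in control cells, a difference of 1.04 ± 0.91 in GFP-positive cells (limma adjusted p = 0.98, and 0.0486 with the replicate number) and 0.85 ± 0.91 in GFP-negative cells (0.138 with the replicate number). Mthfd2l, the nearest tested gene on that side, differed by -0.31 ± 0.31 in GFP-positive cells and -0.10 ± 0.31 in GFP-negative cells. Parm1, beyond Btc, differed by -0.57 ± 0.25 in GFP-positive cells and -0.15 ± 0.25 in GFP-negative cells. Rchy1 differed by 0.10 ± 0.25 and 0.04 ± 0.25. Of the tested genes in this stretch, Ereg had the largest difference from control in both treated groups. It belongs to the family selected on these same differences, so nothing is read from its rank. The neighbours were chosen by position.

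The genes whose signal over the 6 arrays, after subtracting the mean of each replicate number, was most like that of Ereg were Lrrc8d (Pearson r 0.999), G3bp1 (0.999), Trav9d-3 (0.999), Syt17 (0.999) and Inhba (0.998). Their differences from control in GFP-positive cells were 0.99, 0.46, 0.69, 1.81 and 0.95. Inhba encodes a subunit of activin and Lrrc8d a subunit of a volume-regulated anion channel. These coefficients describe 6 arrays that share their group means.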
